A study of Mus musculus with 16 samples.

Results

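Cell cycle and DNA replication genes were followed in 16 cultures of differentiated mouse jejunal enteroids, the epithelial structures that grow from isolated intestinal crypts. The 40 members were taken by gene name from a count table of 54532 genes, and each name matched a single gene. They comprise 10 genes of origin licensing and the replication fork, 3 of nucleotide supply, 6 G1 and G1/S cyclins and kinases, 4 S-phase and mitotic cyclins and kinases, 2 transcription factors, 7 mitotic kinases, checkpoint and ubiquitin ligase genes, and 8 genes of chromosomes, kinetochores and the spindle. All 40 passed the filter on low counts in every comparison, and the lowest count of a member in a culture was 228, for Ccne2.

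There were 4 groups of 4 cultures, and the cultures of a group came from separate mice. MYO5BΔIEC enteroids carried Vil1-CreERT2 and floxed Myo5b alleles, the gene of the motor protein myosin Vb, and MYO5B(G519R) enteroids carried Vil1-CreERT2 with 1 floxed and 1 G519R allele. Both received 1 µM 4-OH-tamoxifen for 24 h to activate Cre, which the villin promoter restricts to intestinal epithelium, before 2 days in differentiation medium, from which the methods say Wnt ligands and EGF were withdrawn. The fourth group was MYO5BΔIEC enteroids given 100 nM Compound-1, a synthetic agonist of the lysophosphatidic acid receptor LPAR5, in that medium, whereas MYO5BΔIEC enteroids had vehicle. The labels name no 4-OH-tamoxifen for the controls, the methods give floxed cultures with ethanol as vehicle, and a legend of the study calls the controls healthy littermates, so their genotype is not certain and exposure to the drug and the loss of MYO5B cannot be told apart in any comparison with control.

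Cyclins are the short-lived partners that switch cyclin-dependent kinases (CDKs) on. D-type cyclins with CDK4 or CDK6 act in G1, cyclin E with CDK2 at entry into S phase, cyclin A with CDK2 or CDK1 during S phase and G2, and cyclin B with CDK1 at mitosis. Before S phase, the MCM2 to MCM7 helicase is loaded on replication origins with the help of CDC6 and CDT1. Genes of S phase are largely driven by E2F factors, which pocket proteins hold in check in G1, and genes of G2 and mitosis by the MuvB complex with MYB and FOXM1, which acts at a promoter element called the cell cycle genes homology region (CHR) beside CCAAT boxes. In the intestine these genes are read in the stem and transit-amplifying cells of the crypt and are shut down as cells differentiate.

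The start regions of 4 members that the results turn on are shown from RefSeq (GRCm38.p6, the build of the deposited tables), as the 250 bases before the start site, 5′ to 3′ on the gene's own strand. Pcna had the smallest p of the licensing and fork genes in MYO5BΔIEC enteroids, Cdk1 and Ccnb1 had the smallest of the S-phase and mitotic cyclins and kinases, and Plk1, which went the other way from them in MYO5B(G519R) enteroids, was chosen after its values were seen. The windows lie at chr2:132253181-132253430, minus strand, for Pcna, chr10:69352913-69353162, minus strand, for Cdk1, chr13:100786487-100786736, minus strand, for Ccnb1, and chr7:122159185-122159434, plus strand, for Plk1. Capitals mark the letters TTTGAA or TTTAAA (the CHR), GCGGGAA or GCGCGAA (an E2F site) and CCAAT, on either strand, so that CCAAT on the other strand reads ATTGG. None of the marked matches overlapped another.
Pcna: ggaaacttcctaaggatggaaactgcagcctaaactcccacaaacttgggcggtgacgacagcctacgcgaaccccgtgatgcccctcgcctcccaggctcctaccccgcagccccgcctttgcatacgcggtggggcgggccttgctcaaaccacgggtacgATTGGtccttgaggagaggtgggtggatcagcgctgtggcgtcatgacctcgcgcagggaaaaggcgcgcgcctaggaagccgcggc
Cdk1: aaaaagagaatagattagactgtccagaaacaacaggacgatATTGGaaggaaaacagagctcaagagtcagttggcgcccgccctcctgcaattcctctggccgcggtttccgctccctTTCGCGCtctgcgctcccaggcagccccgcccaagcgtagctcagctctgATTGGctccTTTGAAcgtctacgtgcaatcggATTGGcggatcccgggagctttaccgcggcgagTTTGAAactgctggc
Ccnb1: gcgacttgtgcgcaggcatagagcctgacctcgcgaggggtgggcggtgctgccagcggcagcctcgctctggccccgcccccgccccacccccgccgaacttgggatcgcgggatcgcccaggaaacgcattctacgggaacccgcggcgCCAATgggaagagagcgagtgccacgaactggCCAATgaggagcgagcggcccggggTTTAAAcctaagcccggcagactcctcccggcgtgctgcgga
Plk1: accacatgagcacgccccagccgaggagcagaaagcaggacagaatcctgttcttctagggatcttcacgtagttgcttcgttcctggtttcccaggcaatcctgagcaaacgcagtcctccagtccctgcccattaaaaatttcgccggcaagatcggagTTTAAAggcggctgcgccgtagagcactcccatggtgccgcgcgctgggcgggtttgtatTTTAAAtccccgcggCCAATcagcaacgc

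The printed Pcna region held a CCAAT box on the other strand, 87 to 83 bases before the start, and neither of the other motifs. That of Cdk1 held all of them, with CHR letters 71 and 15 bases before the start, an E2F site 130 bases before it and CCAAT boxes on the other strand 208, 80 and 48 bases before it. Ccnb1 had CHR letters 42 bases and CCAAT boxes 99 and 67 bases before its start. Plk1 had CHR letters 89 and 29 bases and a CCAAT box 14 bases before its start. These starts lay 134, 26, 84 and 4 bases from the gene starts of the deposited table for Pcna, Cdk1, Ccnb1 and Plk1.

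Among the members, RefSeq regions of 300 bases (250 before and 50 after the start) were matched by symbol for 31 of 40. CHR letters occurred in 61.3% of them, against 19.5% of the 11625 regions matched to all genes tested, E2F letters in 29.0% against 10.6%, and CCAAT boxes in 77.4% against 38.7%. The motifs divided the members by role. E2F letters were found in 6 of 8 regions of the licensing and fork group and in none of the 13 regions of the kinase and checkpoint group and the chromosome and spindle group, which held CHR letters in 12. Both CHR letters and a CCAAT box stood in 54.8% of the members' regions and in 7.97% of all regions. They were no more frequent among members that fell in MYO5BΔIEC enteroids (6 of 13 regions) than among those not called there (11 of 18). Members without a matched region are missing from this comparison. Among them were Ccne2 and Gins2, which had the largest falls, Ccna2, which also fell, and Ccnd1 and Ccnd2, the only members that rose. A match of letters is a description of sequence and does not show that a factor binds.

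The cultures held 27804968 to 40101729 counted reads, and the 40 members together took 0.325% to 0.598% of them. Levels are given as CPM, each count divided by the library's total and scaled by TMM over the 16 cultures. The members summed to 5524.7 to 5797 CPM in control, 3884.5 to 5256.5 CPM in MYO5BΔIEC and 4829.5 to 5825.3 CPM in MYO5B(G519R) cultures, and the sums with Compound-1 were 3201.9 to 5082.4 CPM. The control and MYO5BΔIEC ranges of these scaled sums did not overlap. As shares of reads, without TMM, they did overlap: the members took 0.471% to 0.552% in control and 0.395% to 0.548% in MYO5BΔIEC cultures. The share was 0.515% to 0.598% in MYO5B(G519R) cultures and 0.325% to 0.5165% with Compound-1. Control culture 1 stood apart from the other controls, with correlations of log2 CPM of 0.967 to 0.971 with them against 0.991 to 0.994 among the others, and results are therefore also given without it. Mitochondrially encoded genes took 6.41% to 10.4% of reads in control cultures and 3.79% to 6.63% in the other groups. A fit with these genes left out was among the alternatives, and the part of this difference in the results was not otherwise tested. Myo5b itself read 160 to 230 CPM in control cultures, and knockout cultures with vehicle read 101 to 170 CPM (edgeR adjusted p = 0.0503). Counts over the whole gene do not check a deletion of part of it or a point mutation.

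The epithelial markers used for the check (Epcam, Vil1, Cdx1, Cdx2, Krt8, Krt19 and Cdh1) summed to 5940 to 7260 CPM in control and 8920 to 9590 CPM in MYO5BΔIEC cultures, those of immune cells to at most 11.6 CPM, with the pan-leukocyte gene Ptprc at most at 0.181 CPM in a culture, and those of fibroblasts to at most 43.1 CPM, with Col3a1, Dcn and Lum at 0 in every culture. Of the 9 stem cell markers, 2 rose and 1 fell in MYO5BΔIEC enteroids. Control cultures had 2560 to 6510 CPM of these markers in sum. The sum was 1200 to 2280 CPM with knockout and 1560 to 2800 CPM with the G519R allele. Without Olfm4 the other 8 markers summed to 667 to 986 CPM in control, 877 to 989 CPM with knockout and 987 to 1060 CPM with the G519R allele, so the fall of the whole sum was that of Olfm4. Olfm4 was the marker that fell, from 1570 to 5710 CPM in control to 318 to 1290 CPM in MYO5BΔIEC cultures (edgeR adjusted p = 0.00896), and Lgr5 was at 123 to 286 and 167 to 219 CPM (adjusted p = 0.665). The stem cell markers that rose were Rnf43, a ubiquitin ligase that removes Wnt receptors (0.61 on the log2 scale, edgeR adjusted p = 0.00821), and Cd44, a hyaluronan receptor (0.76, adjusted p = 0.015, and 0.0519 without control culture 4). Markers of differentiated cells also moved, and all of them were named after their values were seen. The enterocyte genes Alpi and Krt20 were called higher (adjusted p = 0.0122 and 0.0209), with no other of 10 called. Of these 10, 6 had positive and 4 negative changes. Fabp1 and Fabp2 were at -1.56 and -1.33 on the log2 scale (edgeR adjusted p = 0.0996 and 0.0908). Control culture 1 read 245 CPM for Fabp1 and 119 CPM for Fabp2, against 3680 to 4450 and 923 to 1310 CPM in the other controls. Each of these genes passed in 1 of the fits that left out a culture. The goblet cell genes Clca1 and Fcgbp were called higher (adjusted p = 0.000614 and 0.0127) and Agr2 lower (0.00207), of 6. The Paneth cell genes Lyz1 and Itln1 were called lower (0.0401 and 0.0272), of 6, the tuft cell gene Pou2f3 lower (0.0166), of 5 tested, and the enteroendocrine genes Chga and Chgb higher (0.0116 and 0.0485), of 6. Krt20 lost its call without control culture 3 or 4 or MYO5BΔIEC culture 1 or 3, Lyz1 without any culture but control culture 1 and MYO5BΔIEC culture 3, Itln1 without any but control culture 1, Pou2f3 without control culture 4 or MYO5BΔIEC culture 2, and Chgb without any but culture 1 of either group (adjusted p of up to 0.144 among these). Fewer dividing cells and less RNA per dividing cell cannot be told apart in RNA from whole cultures, and the part of these cell type markers in what follows was not tested.

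In control cultures the members spanned a wide range of levels. Per gene length, in the deposited FPKM, Pcna was the most abundant at 187 ± 41.9 (SD, n = 4), followed by Cdk4 at 110 ± 9.99, Ube2c at 63.1 ± 8.32 and Top2a at 60.1 ± 3.56 FPKM. The least abundant were Foxm1 at 5.56 ± 0.946, Ccne1 at 6.12 ± 1.08 and Cdc6 at 7.21 ± 0.727 FPKM. The levels of Ube2c and Top2a, and those of Foxm1 and Ccne1, differed by less than their spread.

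**Figure D1:**
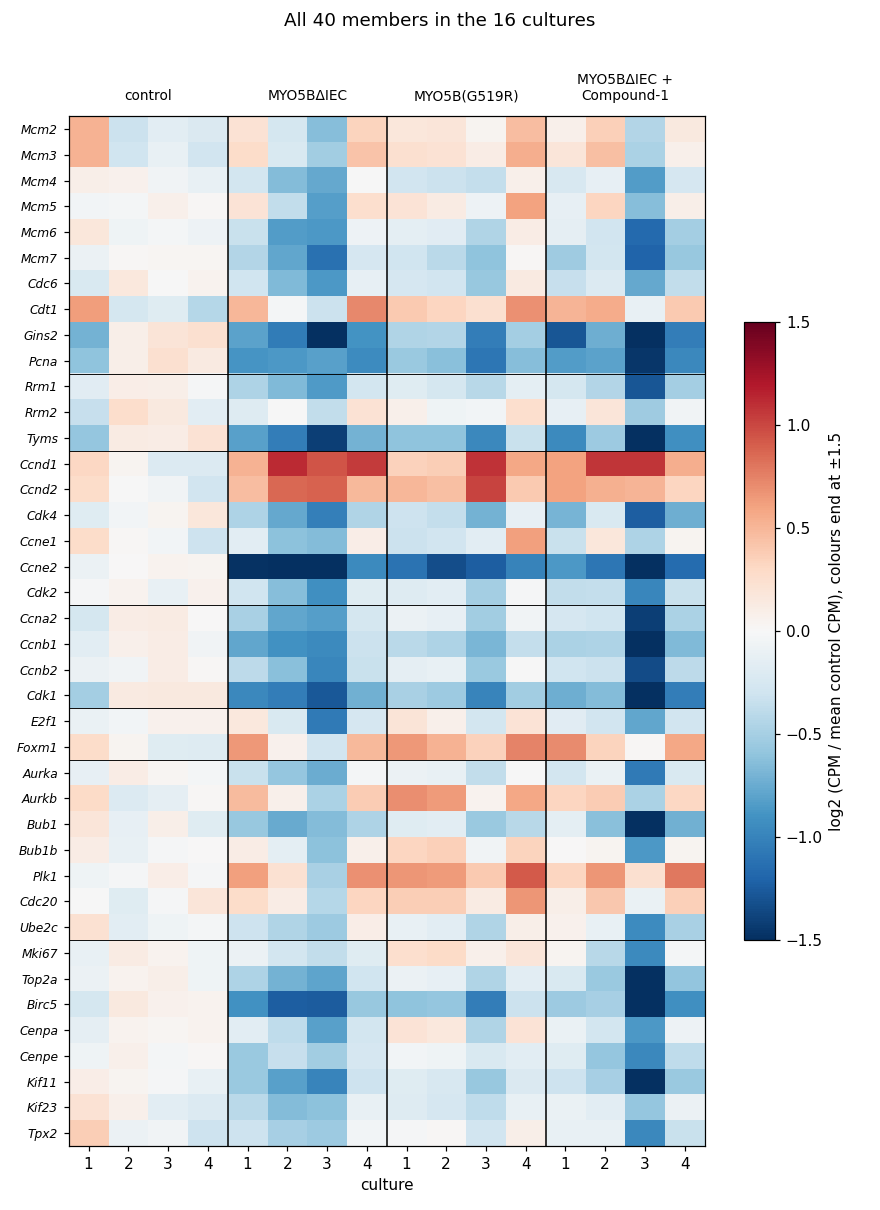
Level of each of the 40 members (rows, in the order of their roles) in each of the 16 cultures (columns), as the log2 ratio of its CPM to the mean of the 4 control cultures. Red is above and blue below the control mean, and colours end at 1.5 on either side. The D cyclin rows are red in all cultures outside control, the Ccne2 row is blue in all of them, and culture 3 of the Compound-1 group is the bluest column.

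The first comparison set MYO5BΔIEC enteroids against control, where loss of MYO5B and exposure to 4-OH-tamoxifen cannot be told apart. In MYO5BΔIEC enteroids, 16 of the 40 members fell and 2 rose at an adjusted p under 0.05 by edgeR's quasi-likelihood test. Of all 17951 genes tested, 13.8% were called lower and 13.5% higher, so the members were called lower more often than genes in general and higher less often. The median log2 fold change of the members was -0.40, against -0.01 over all genes, and 32 of 40 were negative. The 16 that fell ran from the replication fork (Pcna, Gins2, Mcm7) and nucleotide supply (Tyms, Rrm1) through Ccne2, Cdk4 and all 4 S-phase and mitotic cyclins and kinases to mitotic genes (Bub1, Birc5, Kif11, Top2a, Cenpe). The 2 that rose were the D cyclins Ccnd1 and Ccnd2. Without control culture 1 there were 19 lower and 2 higher, with all 18 of these calls kept, against 20.8% and 21.2% of all genes.

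**Figure D2:**
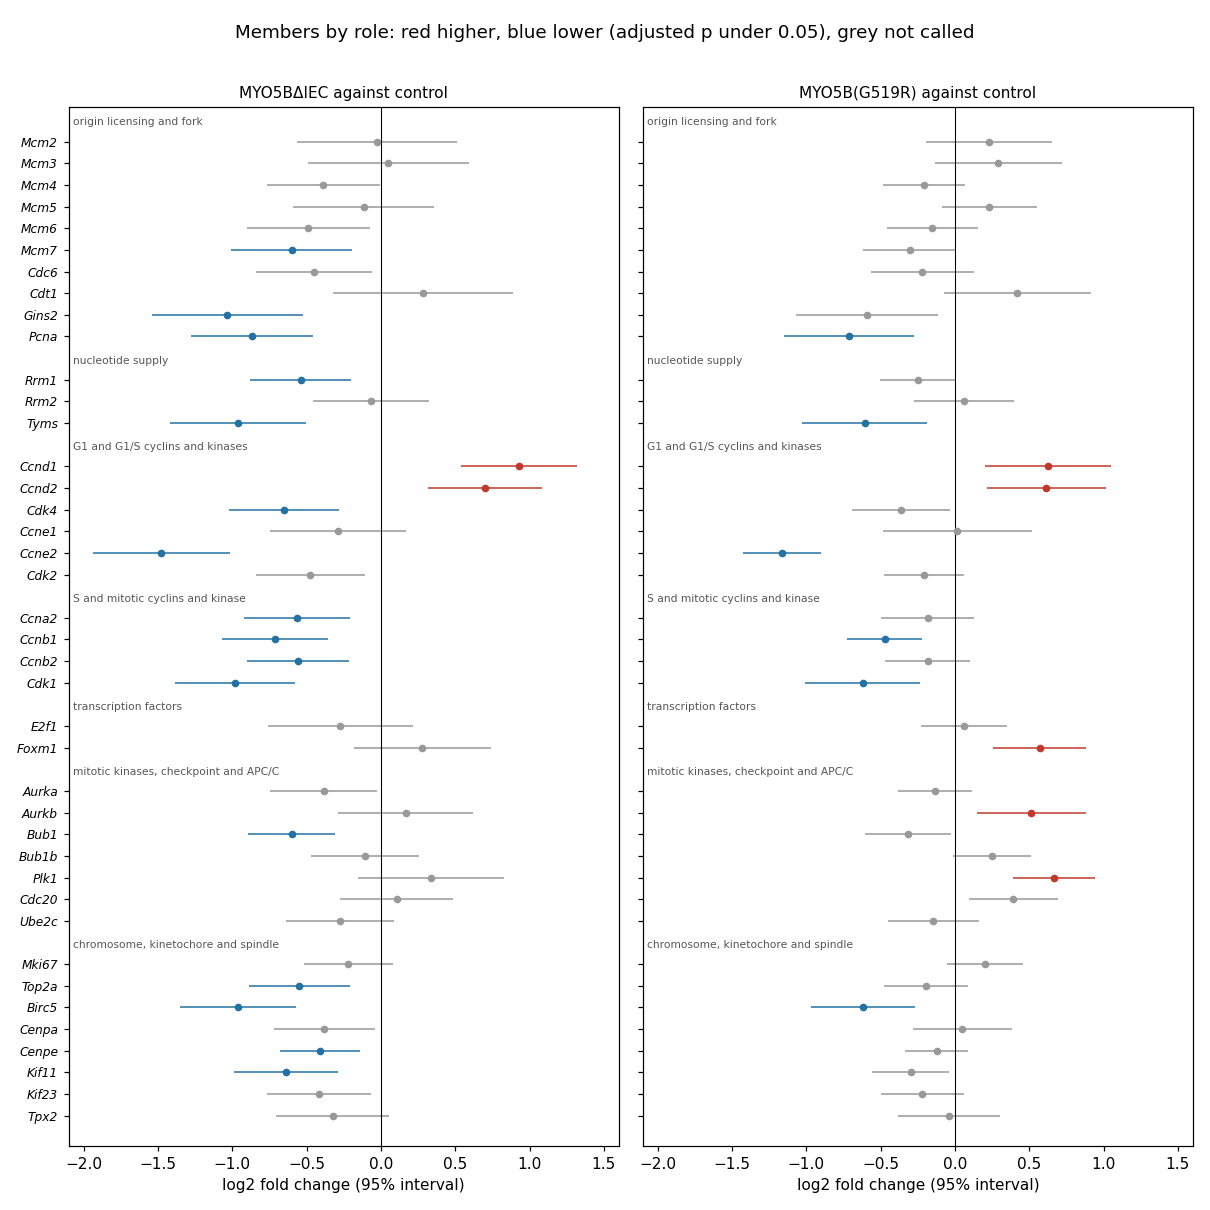
Log2 fold change of each member against control, with its 95% interval, in MYO5BΔIEC (left) and MYO5B(G519R) enteroids (right), grouped by role, 4 cultures a group. Red points were called higher, blue points lower and grey points neither at an adjusted p under 0.05. Blue points run through most roles on the left, the D cyclins are red on both sides, and Foxm1, Aurkb and Plk1 are red on the right.

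In the licensing and fork group, 3 of 10 members fell and none rose. Pcna, the sliding clamp that holds DNA polymerases on the template, was at 305, 494, 545 and 507 CPM in control cultures 1 to 4 and at 250, 255, 264 and 241 CPM in the MYO5BΔIEC cultures. All knockout cultures lay below all controls, and the lowest control was culture 1. The log2 fold change of Pcna was -0.87 ± 0.19 (SE; edgeR adjusted p = 0.00757). Gins2, a subunit of the GINS complex of the active replicative helicase, was at 22.1, 38.4, 41.1 and 42.4 CPM in control and at 20.7, 17.4, 12.6 and 19.3 CPM in MYO5BΔIEC cultures, a change of -1.03 ± 0.23 (adjusted p = 0.00882). Here too the groups did not overlap, but control culture 1 was close to the knockout values. Mcm7 was the only gene of the MCM helicase subunits that passed the test (-0.60 ± 0.18, adjusted p = 0.0341).

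The remaining licensing genes did not pass. Mcm2, another subunit of the helicase, was at 168, 93.2, 105 and 101 CPM in control and 136, 97.8, 75.3 and 148 CPM in MYO5BΔIEC cultures, a log2 fold change of -0.02 with a 95% interval of -0.56 to 0.51 (adjusted p = 0.955). The highest of these 8 values was that of control culture 1, and the groups overlapped. The loading factors Cdc6 and Cdt1 had adjusted p of 0.0834 and 0.484, with means of 28.3 ± 6.45 against 38.8 ± 4.26 CPM for Cdc6 and 68.5 ± 22.2 against 56.6 ± 20.8 CPM for Cdt1 (SD, n = 4, MYO5BΔIEC against control). Among Mcm3, Mcm4, Mcm5 and Mcm6 the adjusted p was 0.0752 for Mcm6 and higher for the others.

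Of the nucleotide supply genes, Tyms, the thymidylate synthase that makes dTMP, was at 58.8, 96.0, 95.3 and 102 CPM in control and at 50, 43.0, 33.1 and 53.8 CPM in MYO5BΔIEC cultures (-0.96 ± 0.21, adjusted p = 0.00763). Rrm1, the large subunit of ribonucleotide reductase, was at 208, 250, 248 and 232 CPM against 170, 148, 130 and 194 CPM (-0.54 ± 0.15, adjusted p = 0.0255). Both were lower in every knockout culture than in any control. Rrm2, the small subunit of the same enzyme, was at 67.9, 104, 95.6 and 77.4 CPM against 75.5, 86.1, 66.9 and 99.9 CPM. Its log2 fold change was -0.07 with an interval of -0.46 to 0.32 (adjusted p = 0.815), and the groups overlapped.

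The G1 and G1/S genes went both ways. Ccnd1, which encodes cyclin D1, was at 150, 124, 105 and 105 CPM in control and at 173, 262, 232 and 250 CPM in MYO5BΔIEC cultures, a log2 fold change of 0.93 ± 0.18 (adjusted p = 0.00441). Ccnd2, for cyclin D2, was at 416, 343, 333 and 283 CPM against 475, 626, 636 and 483 CPM (0.70 ± 0.17, adjusted p = 0.0142). Every knockout culture exceeded every control for both cyclins. Ccne2, for cyclin E2, had the largest fall of the 40 members, from 25.5, 27.2, 28 and 27.8 CPM in control to 9.68, 7.04, 8.07 and 14 CPM (-1.48 ± 0.21, adjusted p = 0.0017). Its control values were tightly spaced, and the nearest knockout culture lay well below them.

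The other cyclin E gene did not follow. Ccne1 was at 20.2, 16.9, 16.2 and 13.5 CPM in control and at 15, 10.9, 10.6 and 17.9 CPM in MYO5BΔIEC cultures, with overlapping groups (-0.29 ± 0.21, adjusted p = 0.329). Of the kinases, Cdk4, the partner of the D cyclins, fell while those cyclins rose (-0.65 ± 0.17, adjusted p = 0.0165), from a mean of 369 ± 37.4 to 234 ± 42.9 CPM (SD, n = 4). Cdk2, the partner of cyclin E, was at 62.1 ± 3.40 and 44.5 ± 10 CPM and did not pass (adjusted p = 0.0576).

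All 4 S-phase and mitotic cyclins and kinases fell. Cdk1, the kinase that drives mitosis, was at 109, 170, 171 and 171 CPM in control and at 79.1, 75.5, 64.1 and 94.1 CPM in MYO5BΔIEC cultures (-0.98 ± 0.18, adjusted p = 0.00411). Ccnb1, its partner cyclin B1, was at 130, 153, 157 and 140 CPM against 84.5, 77.3, 74.5 and 116 CPM (-0.71 ± 0.16, adjusted p = 0.00926). In both genes whose start regions are printed above, all knockout cultures were below all controls, and control culture 1 was the lowest control. Ccnb2, for cyclin B2, fell by 0.56 on the log2 scale (SE 0.16, adjusted p = 0.0233). Ccna2, for cyclin A2, was at 147, 191, 192 and 178 CPM against 126, 103, 100 and 148 CPM (-0.56 ± 0.16, adjusted p = 0.0265), and knockout culture 4 lay just above control culture 1.

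Neither transcription factor passed the test. E2f1 was at 24.7, 25.8, 27.6 and 27.8 CPM in control and at 29.5, 22.6, 12.7 and 22.3 CPM in MYO5BΔIEC cultures (-0.27 ± 0.22, adjusted p = 0.394). Foxm1 was at 39.8, 33.7, 28.9 and 28.8 CPM against 51.5, 34.4, 26.8 and 45.8 CPM (0.28 ± 0.21, adjusted p = 0.351). The knockout cultures spread around the controls in both genes, with culture 3 lowest and culture 1 highest.

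In the group of mitotic kinases, checkpoint and ubiquitin ligase genes, Bub1 was the only 1 of 7 to fall. This kinase of the spindle checkpoint was at 74.8, 60.9, 70.1 and 58.4 CPM in control and at 44.4, 39.0, 42.0 and 48.0 CPM in MYO5BΔIEC cultures (-0.60 ± 0.13, adjusted p = 0.00825), with no overlap. Aurka, the kinase of centrosomes and spindle poles, was at 58.1, 68.2, 64.7 and 62.1 CPM against 50.4, 42.5, 37.8 and 62.1 CPM (-0.39 ± 0.16, adjusted p = 0.101). Knockout culture 4 reached the control range, the other cultures did not. Cdc20, an activator of the anaphase-promoting complex, was at 77.4, 68.4, 76.8 and 87.9 CPM against 94.1, 83.7, 57.9 and 96.9 CPM (0.11 ± 0.17, adjusted p = 0.689). Aurkb, Bub1b, Plk1 and Ube2c had adjusted p between 0.244 and 0.665.

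Of the 8 chromosome, kinetochore and spindle genes, all had negative fold changes and 4 passed. Birc5, which encodes survivin of the chromosomal passenger complex, was at 89.0, 118, 112 and 111 CPM in control and at 57.0, 45.4, 45.1 and 72.3 CPM in MYO5BΔIEC cultures (-0.96 ± 0.18, adjusted p = 0.00396). Kif11, the kinesin that pushes spindle poles apart, was at 162, 155, 149 and 140 CPM against 103, 85.8, 76.2 and 122 CPM (-0.64 ± 0.16, adjusted p = 0.0141). Top2a, the topoisomerase that untangles replicated DNA, was at 524, 578, 594 and 531 CPM against 403, 341, 322 and 451 CPM (-0.55 ± 0.15, adjusted p = 0.0236). For these 3 genes no knockout culture reached the lowest control. Cenpe, a kinesin of the kinetochore, fell by 0.41 (SE 0.12, adjusted p = 0.031).

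Mki67, whose protein Ki-67 coats mitotic chromosomes and is the usual stain for dividing cells, was not called. It was at 326, 382, 366 and 337 CPM in control and at 331, 290, 273 and 310 CPM in MYO5BΔIEC cultures. The highest knockout culture lay above the lowest control. The log2 fold change was -0.22 ± 0.14, with a 95% interval of -0.52 to 0.08 (adjusted p = 0.256). Cenpa, Kif23 and Tpx2 had adjusted p of 0.0892, 0.0747 and 0.187.

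**Figure D3:**
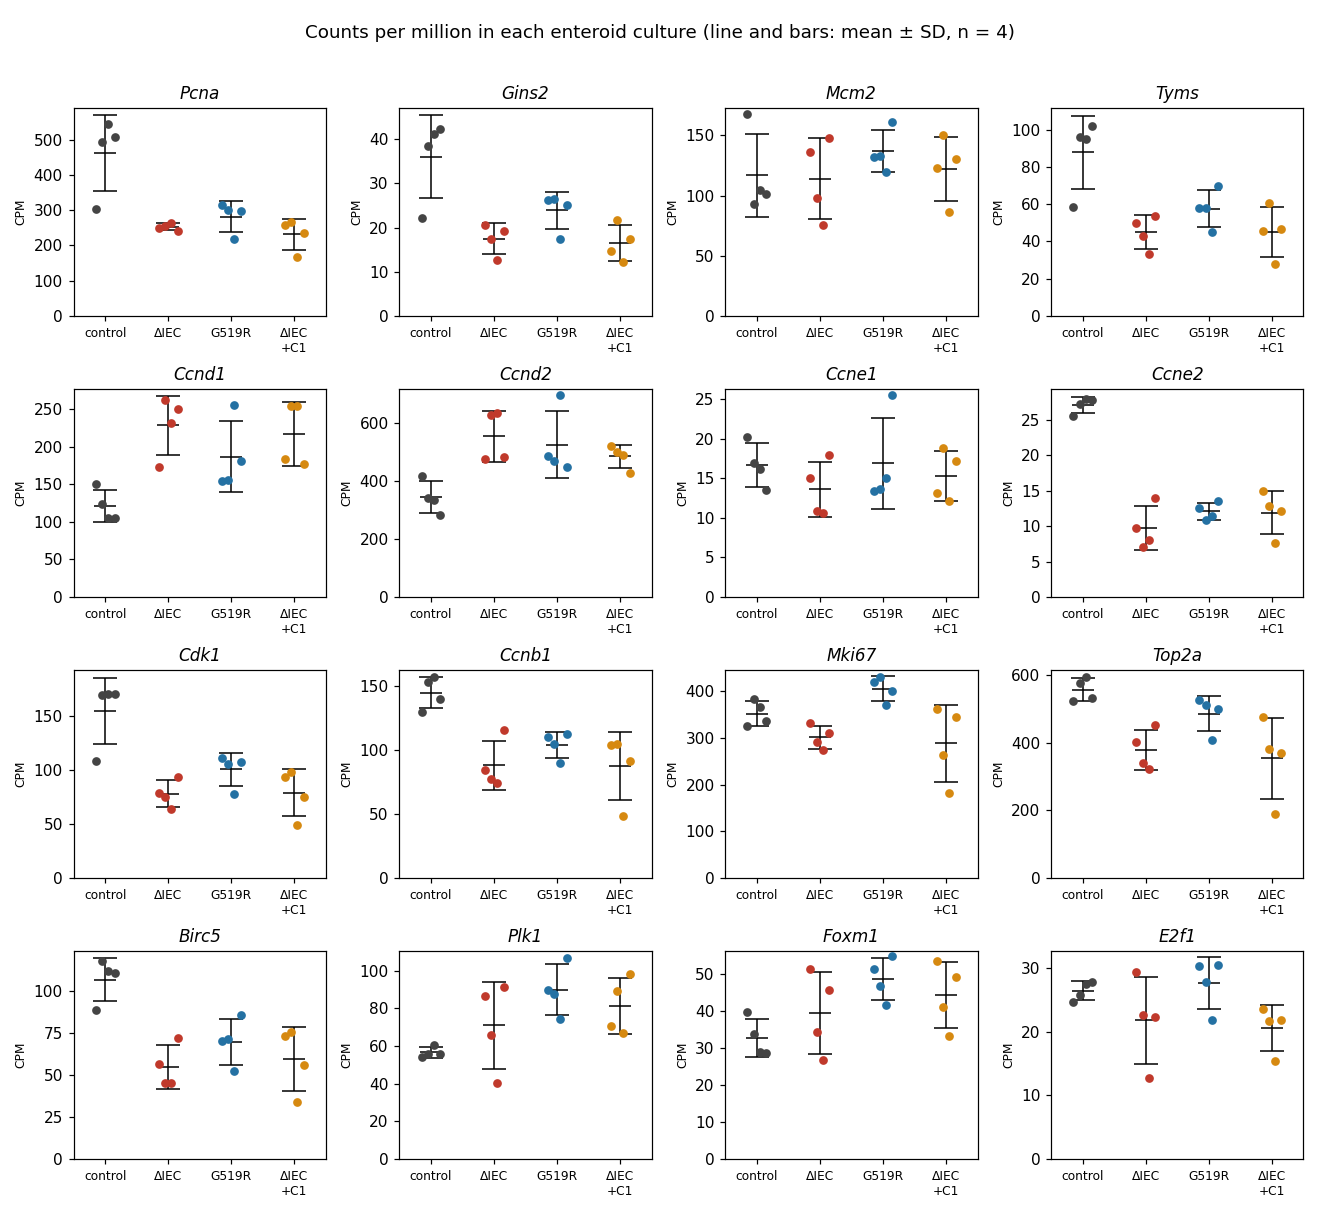
CPM of 16 members in each culture (points), with the mean and SD of the 4 cultures of a group, on axes that start at 0. Pcna, Tyms, Ccne2, Cdk1, Ccnb1 and Birc5 are lower and Ccnd1 and Ccnd2 higher in the 3 groups without functional MYO5B, and the separate control point low in Pcna, Gins2, Tyms and Cdk1 is culture 1.

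How firmly each call held depended on single cultures, and calls over all genes also changed with the culture left out. With each of the 8 cultures left out in turn, 9 of the 18 calls were kept every time (Gins2, Pcna, Tyms, Ccnd1, Ccne2, Ccnb1, Cdk1, Bub1 and Birc5). Mcm7, Rrm1, Ccna2 and Cenpe were lost without control culture 2, 3 or 4 or MYO5BΔIEC culture 1, 2 or 3, with adjusted p of up to 0.0997, 0.079, 0.0855 and 0.0909. Top2a was lost without control culture 2, 3 or 4 or MYO5BΔIEC culture 2 or 3 (up to 0.0782), Ccnb2 without control culture 2, 3 or 4 or MYO5BΔIEC culture 2 (up to 0.0724) and Cdk4 without control culture 3 or 4 or MYO5BΔIEC culture 2 (up to 0.0558). Ccnd2 was lost without control culture 4 or MYO5BΔIEC culture 2 (up to 0.0509) and Kif11 without MYO5BΔIEC culture 2 (0.0517). Counts of lower members ranged from 8, without MYO5BΔIEC culture 2, to 22, without culture 4 of that group. Of all genes, 7.98% and 13.7% were called lower in these 2 fits, against 13.8% with all 8 cultures. Over the 8 fits the share called lower ranged from 7.98% to 20.8%. Among the MYO5BΔIEC cultures, culture 3 was the lowest in 33 of 40 members and culture 4 the highest in 30.

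Longer genes had higher fold changes over all genes: Spearman's rho of log2 fold change and gene length was 0.286 across the 17951 genes and -0.07 across the 40 members, a description only, since genes of the same libraries are not independent. With each culture's trend of expression on length removed, 21 members were called lower and 2 higher, where 27% of all genes were called in either direction. Mki67, at 10061 bases a long gene, was then among those called lower. Ccnb2, at 1531 bases, lost its call in that fit (-0.34, edgeR adjusted p = 0.142). Of the 4 S-phase and mitotic cyclins and kinases, 3 were still called lower there.

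The same members were then compared in the second model. In MYO5B(G519R) enteroids 6 of 40 members fell and 5 rose, where 13.7% of all 17829 genes tested were called lower and 13.1% higher. Those shares of the members are near the background, and the median log2 fold change was -0.15 against -0.05 over all genes. The members that fell were Ccne2, Ccnb1, Birc5, Pcna, Cdk1 and Tyms. Those that rose were Ccnd1, Ccnd2, Plk1, Foxm1 and Aurkb. Without control culture 1 the counts were 9 lower and 10 higher, against 22.1% and 24% of all genes. Both models were tested against the same controls, so their lists of calls are not independent of each other.

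Of the genes that fell, Ccne2 was at 12.6, 10.8, 11.5 and 13.5 CPM in MYO5B(G519R) cultures, well below the control values given above (-1.16 ± 0.12, edgeR adjusted p = 0.00177). Ccnb1 was at 110, 105, 90.0 and 113 CPM (-0.47 ± 0.11, adjusted p = 0.014) and Birc5 at 70.2, 71.7, 52.3 and 85.9 CPM (-0.62 ± 0.16, adjusted p = 0.0178), both without overlap with control. Pcna was at 315, 300, 218 and 297 CPM (-0.71 ± 0.20, adjusted p = 0.0246). Cdk1 at 111, 106, 78.0 and 108 CPM (-0.62 ± 0.17, adjusted p = 0.026) and Tyms at 58.1, 58.0, 45.1 and 69.6 CPM (-0.61 ± 0.19, adjusted p = 0.0393) also fell. In these last 3 genes the MYO5B(G519R) cultures lay around control culture 1 and below the other 3 controls.

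Of the genes that rose, Ccnd1 was at 154, 156, 256 and 181 CPM (0.63 ± 0.19, adjusted p = 0.0362) and Ccnd2 at 487, 469, 696 and 450 CPM (0.61 ± 0.18, adjusted p = 0.031). Every MYO5B(G519R) culture was above every control for both D cyclins, with culture 3 the highest. Plk1, the polo-like kinase of mitotic entry and spindle assembly, was at 54.1, 55.7, 60.8 and 55.9 CPM in control and at 89.9, 87.9, 74.3 and 107 CPM in MYO5B(G519R) cultures (0.67 ± 0.12, adjusted p = 0.00509). Foxm1, the factor that drives many mitotic genes, was at 51.5, 46.9, 41.8 and 54.8 CPM (0.57 ± 0.14, adjusted p = 0.0156). Both genes were higher in every MYO5B(G519R) culture than in any control. Aurkb, the kinase of the chromosomal passenger complex, was at 55.8, 39.8, 41.7 and 46.4 CPM in control and at 74.6, 71.6, 47.7 and 68.6 CPM in MYO5B(G519R) cultures (0.51 ± 0.16, adjusted p = 0.0433), where culture 3 fell within the control range. Birc5, whose protein works in the same complex as Aurkb, thus fell in the cultures in which Aurkb rose.

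Mki67 was at 420, 431, 370 and 400 CPM in MYO5B(G519R) cultures, against 326 to 382 CPM in control. The log2 fold change was 0.20 ± 0.12 (adjusted p = 0.221), and culture 3 overlapped the controls. With the trend on gene length removed its value was -0.01, so no direction is read from it. Ccne2, Ccnb1 and Plk1 kept their calls with each of the 8 cultures left out. Ccnd2 and Tyms lost theirs without control culture 2, 3 or 4 or MYO5B(G519R) culture 1, 2 or 3, Aurkb without control culture 2, 3 or 4 or MYO5B(G519R) culture 1, 2 or 4, and Ccnd1 without control culture 2, 3 or 4 or MYO5B(G519R) culture 3 or 4. Pcna and Cdk1 lost theirs without control culture 2, 3 or 4 or MYO5B(G519R) culture 2 or 3, Foxm1 without control culture 3 or 4, and Birc5 without control culture 2 or 3. The highest adjusted p reached was 0.117, for Aurkb. Over these 8 fits 7.99% to 22.1% of all genes were called lower and 8.22% to 24% higher.

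The models were also tested against each other, which does not use the controls. No member passed the adjusted test between MYO5B(G519R) and MYO5BΔIEC enteroids by edgeR or DESeq2, and of all 17943 genes 0.00557% were called, the single gene BC035947, which was looked up after the count was seen. The fold changes leaned 1 way, with 38 of 40 members higher in MYO5B(G519R) enteroids and a median log2 fold change of 0.29 against -0.01 over all genes. At an unadjusted p under 0.05 there were 13 members, against 4.3% of all genes. The smallest p was that of Mki67, whose 4 MYO5B(G519R) cultures (370 to 431 CPM) all exceeded the 4 MYO5BΔIEC cultures (273 to 331 CPM), with a log2 fold change of 0.43, an interval of 0.19 to 0.67 and an adjusted p of 0.838. Only Ccnd1 and Ccnd2 were negative. Their intervals were -0.71 to 0.11 and -0.46 to 0.30. In both groups culture 3 was the lowest for most members (35 of 40 with the G519R allele and 33 of 40 with knockout) and culture 4 the highest (27 and 30). Over all genes, deviations of same-numbered cultures correlated with r of 0.0574 to 0.524, over 0.1 in 3 of 4 pairs. The labels give no pairing, so the test was unpaired. A fit with the replicate number as a block also called no member. Members share libraries, so the common direction of many members counts their cultures and not the members as replicates.

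The last question was whether Compound-1 moves these genes. Between treated and vehicle MYO5BΔIEC enteroids no member passed the adjusted test by edgeR or DESeq2, and no member had an unadjusted p under 0.05. Over all 18037 genes edgeR called 0% at the adjusted threshold and 7.51% at an unadjusted p under 0.05, and DESeq2 called 91 genes. The members' log2 fold changes lay between -0.23 and 0.26, with a median of -0.02. The lowest end of the 40 intervals was -0.66, for Top2a, and the highest was 0.84, for Ccne2. Other members had narrower intervals, such as -0.50 to 0.20 for Pcna. The smallest p was that of Ccnd2, at 522, 499, 490 and 429 CPM with Compound-1 and 475, 626, 636 and 483 CPM with vehicle (edgeR adjusted p = 0.832, log2 fold change -0.23 with an interval of -0.57 to 0.11).

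**Figure D4:**
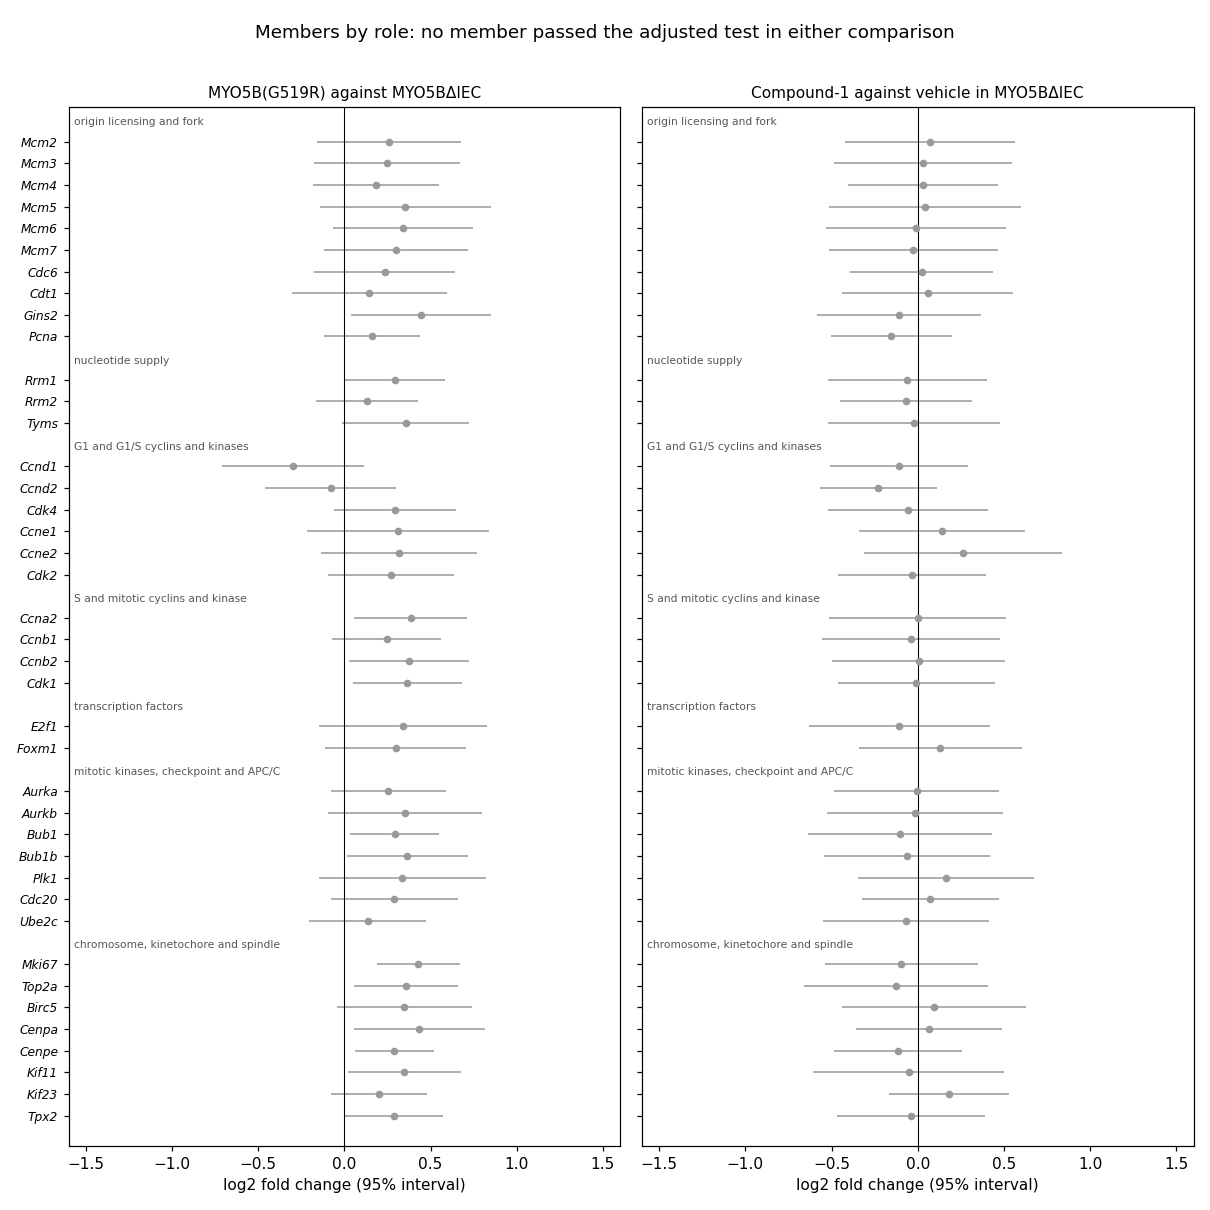
Log2 fold change of each member with its 95% interval, in MYO5B(G519R) against MYO5BΔIEC enteroids (left) and in Compound-1-treated against vehicle MYO5BΔIEC enteroids (right), 4 cultures a group. On the left 38 of 40 points lie right of 0 and on the right 15 of 40 do. No member passed the adjusted test on either side.

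Set against control, the treated enteroids had 11 members lower and 3 higher, where 13.7% and 15.7% of all 17937 genes were called. Without control culture 1 there were 13 and 5, against 19.2% and 22.9% of all genes. The members called lower were Ccne2, Gins2, Pcna, Cdk1, Tyms, Birc5, Cdk4, Ccnb1, Mcm7, Cdk2 and Cenpe, and those called higher Ccnd1, Plk1 and Ccnd2. Cdk1, at 93.5, 98.5, 49.6 and 75.6 CPM with Compound-1, remained below every control (-0.97 ± 0.23, edgeR adjusted p = 0.0127), and so did Pcna, at 258, 266, 168 and 236 CPM (-0.998 ± 0.22, adjusted p = 0.00943). Ccnd1 stood at 184, 255, 254 and 177 CPM, above every control (0.85 ± 0.19, adjusted p = 0.00946). Culture 3 of the treated group was the lowest of its group in 38 of 40 members, and Top2a was at 476, 380, 189 and 371 CPM.

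In this comparison Gins2, Pcna, Tyms, Ccnd1, Ccne2 and Cdk1 kept their calls with each of the 8 cultures left out. Mcm7, Cdk4 and Cdk2 lost theirs without control culture 2, 3 or 4 or treated culture 1, 3 or 4, Plk1 without control culture 2, 3 or 4 or treated culture 2 or 4, and Ccnb1 and Birc5 without control culture 2, 3 or 4 or treated culture 4. Cenpe lost its call without control culture 2, 3 or 4 or treated culture 2, 3 or 4, and Ccnd2 without any of them but control culture 1. The highest adjusted p was 0.127, for Ccnd2. Over these 8 fits 6.8% to 19.2% of all genes were called lower and 9.67% to 22.9% higher.

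Other genes of the cell cycle were read from 5 lists, and all but 2 of their genes could be tested. Of all genes, 13.8% were called lower and 13.5% higher in MYO5BΔIEC enteroids, and 13.7% and 13.1% in MYO5B(G519R) enteroids. In treated enteroids the shares were 13.7% and 15.7%. Of 40 further DNA replication genes, 25 fell and none rose in MYO5BΔIEC enteroids, with a median log2 fold change of -0.62. Rfc4, a subunit of the clamp loader that places PCNA on DNA, was at 54.8, 57.4, 64.0 and 60.2 CPM in control and at 21.6, 19.0, 14.5 and 31.6 CPM in MYO5BΔIEC cultures (-1.44 ± 0.21, edgeR adjusted p = 0.00194). Pole2, a subunit of DNA polymerase epsilon, was at 23.5, 20.3, 22.1 and 22.5 CPM against 10.7, 9.26, 7.51 and 12.2 CPM (-1.15 ± 0.17, adjusted p = 0.00207). Neither gene's groups overlapped. Pold1 and Pola2, the replication genes with the smallest p among those with positive changes, did not pass (adjusted p = 0.315 and 0.769). In MYO5B(G519R) enteroids 13 of the 40 fell and 3 rose, and Pold1, the catalytic subunit of DNA polymerase delta, was at 78.5, 52.3, 57.1 and 56.9 CPM in control and at 109, 109, 71.4 and 110 CPM there (0.71 ± 0.18, adjusted p = 0.0166). That call was lost without control culture 2, 3 or 4 or MYO5B(G519R) culture 2 (up to 0.0535). In the treated enteroids 22 fell and none rose.

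Of 50 further mitosis genes tested (51 listed), 26 fell and 2 rose in MYO5BΔIEC enteroids, 15 fell and 9 rose in MYO5B(G519R) enteroids and 20 fell and 3 rose in treated enteroids. In the same order, 13.8%, 13.7% and 13.7% of all genes were called lower and 13.5%, 13.1% and 15.7% higher. Nusap1, which binds spindle microtubules near chromosomes, was at 86.3, 104, 111 and 115 CPM in control and at 52.8, 45.9, 51.7 and 56.4 CPM in MYO5BΔIEC cultures (-1.003 ± 0.13, adjusted p = 0.00163). Kif18a, a kinesin that aligns chromosomes, was at 28.3, 28.2, 27.6 and 27.8 CPM against 12.8, 10.3, 10.5 and 15.9 CPM (-1.17 ± 0.17, adjusted p = 0.0017). In both genes the knockout cultures were far from the controls. The 2 that rose were also kinesins. Kif18b was at 21.8, 19.8, 18.1 and 18.8 CPM against 28.8, 30.9, 20.7 and 32.2 CPM (0.53 ± 0.16, adjusted p = 0.0359), and Kifc1 at 29.1, 26.5, 23.9 and 24.9 CPM against 37.9, 45.8, 25.5 and 45.1 CPM (0.57 ± 0.19, adjusted p = 0.0448). Knockout culture 3 fell within the control range in both, and both calls were lost without control culture 2, 3 or 4 or knockout culture 1, 2 or 4 (adjusted p of up to 0.106 and 0.132).

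**Figure D5:**
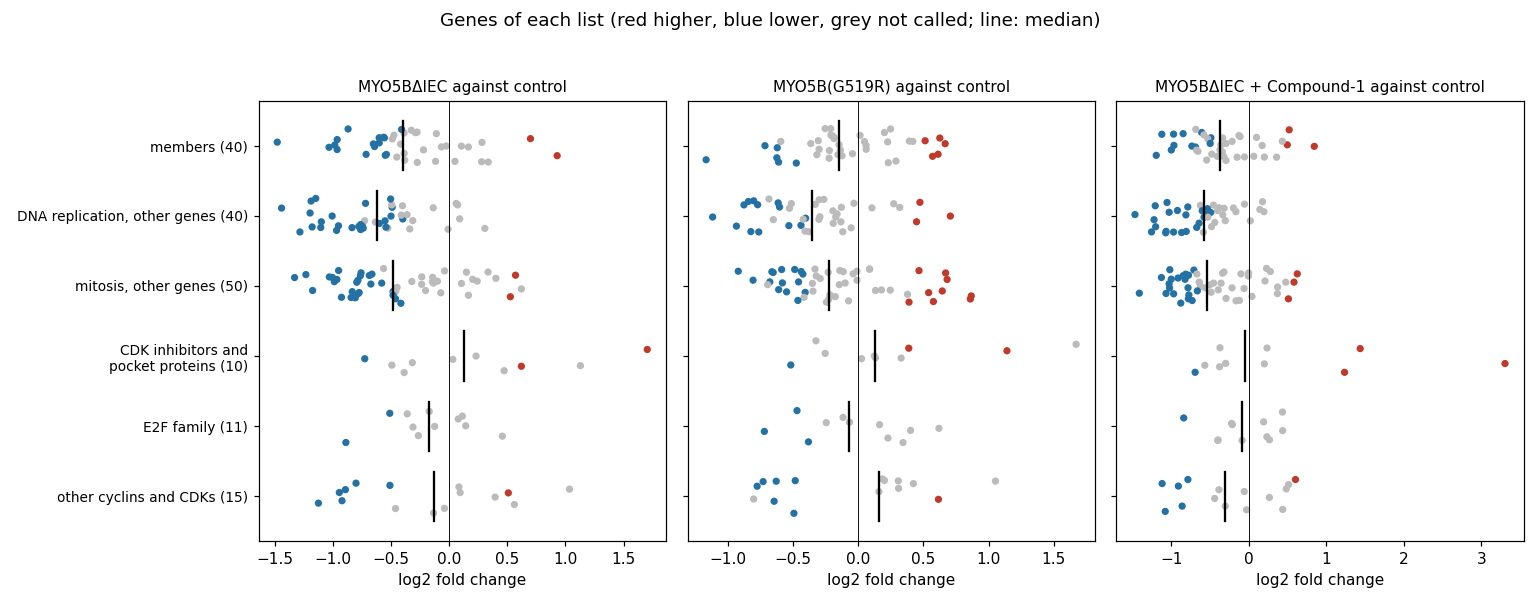
Log2 fold change against control of the 40 members and of the genes tested in 5 further lists (points, spread vertically for legibility) in the 3 groups without functional MYO5B, with red points called higher, blue points lower and a line at the median. The replication list has the lowest median on the left, -0.62, and the point at the far right of the inhibitor list in that panel is Cdkn1a. The horizontal axes differ between panels.

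Among 10 CDK inhibitors and pocket proteins, 2 rose and 1 fell in MYO5BΔIEC enteroids, shares near the 13.5% and 13.8% of all genes called higher and lower. In MYO5B(G519R) enteroids 2 rose and 1 fell, against 13.1% and 13.7% of all genes. In treated enteroids 3 rose and 1 fell, against 15.7% and 13.7%. Between treated and vehicle enteroids none passed, with log2 fold changes from -0.36 to 2.14. There 2 of the 10 had an unadjusted edgeR p under 0.05, against 7.51% of all genes. Cdkn1a, which encodes the CDK inhibitor p21, was at 194, 134, 140 and 114 CPM in control and at 343, 541, 592 and 411 CPM in MYO5BΔIEC cultures (1.70 ± 0.22, adjusted p = 0.00148). It was at 307, 292, 459 and 226 CPM in MYO5B(G519R) cultures (1.14 ± 0.23, adjusted p = 0.00746) and at 338, 503, 431 and 304 CPM with Compound-1 (1.44 ± 0.22, adjusted p = 0.00398). Every culture of the 3 groups was above every control. Cdkn2b, for the inhibitor p15 of CDK4 and CDK6, was at 32.0, 43.1, 35.4 and 37.5 CPM in control and at 69.8, 47.4, 52.1 and 57.4 CPM in MYO5BΔIEC cultures (0.62 ± 0.16, adjusted p = 0.0154, and 0.052 without control culture 3). Cdkn1b, for p27, went down without overlap, from 116, 73.8, 82.8 and 95.7 CPM to 60.5, 52.4, 53.8 and 55.3 CPM (-0.72 ± 0.15, adjusted p = 0.00726). Inhibitors of the same CDKs thus changed in opposite directions. Rbl1, for the pocket protein p107, had the next smallest p of the negative changes and did not pass (adjusted p = 0.0958).

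In the list of 11 E2F family genes and partners, 2 fell and none rose in MYO5BΔIEC enteroids, where 13.8% of all genes were called lower. The share is near that background. Lin9, a core subunit of the MuvB complex, was at 24.4, 28.9, 30.6 and 27.8 CPM in control and at 13.6, 13.5, 15.7 and 17.3 CPM in MYO5BΔIEC cultures (-0.89 ± 0.15, adjusted p = 0.00261). E2f5, an E2F of the repressive kind, was at 37.5, 27.2, 31.8 and 29.3 CPM against 18.8, 21.2, 26.4 and 21.5 CPM (-0.51 ± 0.16, adjusted p = 0.0335). All knockout values were below the lowest control in both, but E2f5 lost its call without control culture 3 or 4 or knockout culture 1, 2 or 4 (up to 0.0916). The E2f5 call was also lost with the gene length trend removed (edgeR adjusted p = 0.209). E2f7 and E2f3, the positive changes with the smallest p, did not pass (adjusted p = 0.195 and 0.64). In MYO5B(G519R) enteroids 3 fell and none rose, and in treated enteroids 1 fell and none rose. Of all genes, 13.7% were called lower in each of these comparisons.

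Of 15 other cyclins and CDKs tested (16 listed), 6 fell and 1 rose in MYO5BΔIEC enteroids, 6 and 1 in MYO5B(G519R) and 5 and 1 in treated enteroids. Over all genes the shares lower and higher were 13.8% and 13.5%, 13.7% and 13.1%, and 13.7% and 15.7%, in that order. Cks2 and Cks1b encode the small subunits that bind CDKs. Cks2 was at 79.1, 104, 103 and 109 CPM in control and at 45.1, 43.6, 35.7 and 56.0 CPM in MYO5BΔIEC cultures (-1.12 ± 0.17, adjusted p = 0.00199), and Cks1b at 59.1, 65.2, 67.8 and 69.9 CPM against 37.4, 32.6, 27.5 and 40.3 CPM (-0.92 ± 0.15, adjusted p = 0.00242). The groups were well apart in both. With the gene length trend removed their changes were -0.64 and -0.60 (edgeR adjusted p = 0.0128 and 0.0156). Ccnd3, the remaining D cyclin, was at 45.0, 28.2, 31.4 and 28.8 CPM in control and at 50.1, 49.3, 48.7 and 40.9 CPM in MYO5BΔIEC cultures (0.51 ± 0.17, adjusted p = 0.0471). Culture 1 of the controls lay within the knockout range, and the call was lost without control culture 2, 3 or 4 or knockout culture 1, 2 or 3 (up to 0.133). Removal of the gene length trend also lost the Ccnd3 call (edgeR adjusted p = 0.126). Cdk6, another partner of the D cyclins, did not pass (adjusted p = 0.115).

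Without control culture 1 the lower calls in MYO5BΔIEC enteroids numbered 27 of the replication list, 29 of the mitosis list, 1 of the inhibitors and pocket proteins, 2 of the E2F list and 6 of the other cyclins and CDKs, and the higher calls 0, 4, 3, 2 and 3. Of all genes, 20.8% were then called lower and 21.2% higher. Over the 8 fits that left out a culture, lower calls of the replication list ranged from 17 to 28 and those of the mitosis list from 17 to 29. The share of all genes called lower ranged from 7.98% to 20.8% over the same fits. In MYO5B(G519R) enteroids the replication list had 21 lower and 5 higher without control culture 1, against 22.1% and 24% of all genes.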

How the data were processed

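The authors sequenced poly-A mRNA libraries of 16 enteroid cultures as paired ends, aligned reads to GRCm38/mm10 (the submitters' notes name STAR 2.5 and TopHat) and counted them per gene with HTSeq 0.6.1. The deposited tables hold raw counts, which carry the tests, and FPKM computed by the authors, which were used for levels between genes and for an alternative.

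Counts were tested 2 groups at a time with edgeR 4.0.16 (R 4.3.3; TMM, quasi-likelihood test, Benjamini-Hochberg adjustment over all genes tested, threshold 0.05) keeping a gene where 2 or more of the 8 cultures reached 10 counts. Intervals are at 95%. Cultures within a group came from separate mice, and no 2 agreed within sampling noise. The procedure was tested on simulated data for MYO5BΔIEC against control (17951 genes), where edgeR called 97% of 4-fold and 51% of 2-fold changes. Alternatives were DESeq2 1.42.0, its size factors, mitochondrial genes left out, other filters, all 4 groups in 1 fit, a replicate block, limma 3.58.1 on log2(FPKM + 1) and log2(FPKM + 0.1), removal of a gene length trend, and leaving out each culture.

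The members, the other gene lists, the markers and the tests were chosen with earlier results of these data known. Values in every culture were given for the members with the 2 smallest and the largest p of each role in MYO5BΔIEC against control and for Mki67, Top2a, Pcna, Ccnd1, Ccnd2, Ccne1 and Cdk1, and for the 2 smallest p in each direction of each other list where called. Plk1 and Aurkb by culture, and Pold1 and Cdkn1a outside that comparison, were chosen after their values were seen.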

Additional observations from a re-analysis of the deposited data

Results flagged for a closer look

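Single cultures stood far from the other 3 of their group in 8 of the 96 sets of 4 values screened (the members named with values, the members' sum and the mitochondrial share), where chance gives about 1 in 20. Control culture 1 was the separate value for Mcm2 (168 CPM, above the others), Tyms (58.8 CPM, below) and Cdk1 (109 CPM, below). MYO5B(G519R) culture 3 was the separate value for Gins2 (17.5 CPM), Cdk1 (78 CPM) and Kif11 (102 CPM), all below the others, and for Ccnd2 (696 CPM), above them. MYO5B(G519R) culture 4 was the high value for Ccne1 (25.5 CPM).

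In CPM, Mki67 lay on opposite sides of the control mean in the models: every MYO5BΔIEC culture was below it and every MYO5B(G519R) culture above it. The log2 fold changes against control were -0.22 and 0.20, and neither passed the test. With the gene length trend removed they were -0.48 (edgeR adjusted p = 0.0378) and -0.0063, so no direction is read for MYO5B(G519R) enteroids. The direct comparison gave 0.43 (edgeR adjusted p = 0.838).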

How the results depend on the processing

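Of 108 recomputed counts of called members whose reported count was above 0, 74 stayed within 1.5 times that count and 34 did not; the counts of 0 in the comparisons without controls stayed at 0 in all 72. With the replicate number as a replicate block, lower members numbered 10 in MYO5BΔIEC and 2 in MYO5B(G519R) enteroids, and higher members 3 in MYO5B(G519R) and 1 in treated enteroids; same-numbered cultures deviated with r of -0.193 to 0.0911 in MYO5BΔIEC against control, -0.147 to 0.203 in MYO5B(G519R) against control, -0.176 to 0.0957 in treated against control and -0.121 to 0.0882 in treated against vehicle enteroids, and the numbers were not taken as pairs. Between MYO5B(G519R) and MYO5BΔIEC enteroids r was 0.0574 to 0.524, over 0.1 in 3 of 4 pairs, a hint of pairing that the labels do not give and in which not every culture correlated best with its own number, and the block called 0 members there, with Mki67 at 0.43 (edgeR adjusted p = 0.122). With the gene length trend removed, 10 members were lower in MYO5B(G519R) enteroids and Mki67 there was at -0.0063. With all 4 groups in 1 fit, 17 were lower in treated enteroids. The shares of all genes called in the block, length and joint fits are not given beside these counts. A change in the members is therefore not told apart from a change in calls over all genes. Leaving out 1 culture, MYO5BΔIEC enteroids had 1 to 3 members higher and 8 to 22 lower, MYO5B(G519R) enteroids 1 to 10 and 2 to 9, and treated enteroids 1 to 5 and 5 to 13. Over the same fits, 8.45% to 21.2% of all genes were called higher and 7.98% to 20.8% lower with knockout. The shares were 8.22% to 24% and 7.99% to 22.1% with the G519R allele, and 9.67% to 22.9% and 6.8% to 19.2% in treated enteroids. The log2 fold change in MYO5BΔIEC enteroids then ranged from -0.17 to 0.20 for Mcm2 and from -0.17 to 0.0396 for Rrm2, so no direction is read for either. Causes of these shifts were not tested. Counts for the other gene lists under the same settings were added after seeing the data. The depth of 27804968 reads or more left no member under the filter, and the number of cultures limits precision.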
